A study of Mus musculus with 8 samples.

Results

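Small nuclear RNAs (snRNAs) were examined in small RNA libraries of mouse bone marrow-derived macrophages (BMDMs). The members were all features annotated as snRNA in either of the deposited tables, 559 of 3514 features in all. Of these, 377 were listed for the Ion Proton run, 431 for the SOLiD run and 249 for both. The cells came from male C57BL/6J mice aged 10 weeks and were kept as controls or cultured for 36 h without M-CSF (Macrophage-Colony Stimulating Factor, on which macrophages depend), an apoptotic stimulus. The Ion Proton run held 2 control and 2 M-CSF withdrawal libraries, and the SOLiD run held a control and an M-CSF withdrawal library of total RNA and another such pair made from RNA selected at 25 to 40 nt. No genotype difference or transgene was named for any group, and the Ion Proton libraries of a condition were described as biological replicates. Whether they came from separate mice was not given in the sources used here, so that p-values measure the spread between these libraries.

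snRNAs are the RNA cores of the spliceosome, the complex that removes introns. In the major spliceosome, U1 pairs with the start of the intron and U2 with the branch site. U4 and U6 enter base-paired to each other together with U5, U4 then leaves, and U6 forms part of the catalytic centre. U11, U12, U4atac and U6atac take the corresponding roles, beside the shared U5, in the minor spliceosome, which removes a rare class of introns. U7 is no splicing factor and directs the processing of histone messenger RNA ends. Most of these RNAs carry a short uridine-rich stretch bound by the Sm proteins, while U6 and U6atac do not and are made by RNA polymerase III.

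Only 10 members carried a family symbol in the annotation (Rnu1a1, Rnu1b1, Rnu1b2, Rnu1b6, Rnu2-10, Rnu5g, Rnu6, Rnu7, Rnu11 and Rnu12). A further 3 were recognised from their textbook sequence after the tables had been seen, Gm24265 as U4, Gm22710 as U4atac and Gm25541 as U6atac. Another 361 were assigned by sequence similarity to one of these 13 references. The families then held 268 copies of U6, 51 of U1, 17 of U2, 10 of U5, 7 of U4, 6 of U6atac, 5 of U7, 5 of U11, 4 of U12 and 1 of U4atac. The remaining 185 copies stayed unnamed, 179 of them with a weaker match to a family and 6 with none. The 559 members had 486 distinct sequences.

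The sequences below are those of the copies on which the results turned, as listed in the deposited table. The U12 and U4 copies are shown because 3 of 4 and 3 of 3 copies tested were called higher after M-CSF withdrawal in the Ion Proton run. Of all features tested, 15.7% were called higher. Similar copies can share reads, so that these counts are no separate observations. In these, in U2 and in U4atac the capitals mark the Sm site letters ATTTTTG.
Rnu12: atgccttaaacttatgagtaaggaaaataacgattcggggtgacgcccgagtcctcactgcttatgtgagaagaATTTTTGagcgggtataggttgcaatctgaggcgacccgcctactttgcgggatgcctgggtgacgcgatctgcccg
Gm24525: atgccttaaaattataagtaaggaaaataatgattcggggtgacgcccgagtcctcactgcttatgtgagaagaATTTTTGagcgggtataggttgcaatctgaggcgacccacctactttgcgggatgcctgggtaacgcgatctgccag
Gm24265: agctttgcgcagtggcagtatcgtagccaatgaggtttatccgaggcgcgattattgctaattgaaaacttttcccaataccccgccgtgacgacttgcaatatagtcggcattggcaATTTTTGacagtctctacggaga
Rnu2-10: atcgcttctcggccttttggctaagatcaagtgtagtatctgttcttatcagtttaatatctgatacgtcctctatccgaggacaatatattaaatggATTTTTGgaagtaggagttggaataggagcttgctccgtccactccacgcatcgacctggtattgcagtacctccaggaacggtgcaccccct
Gm22710: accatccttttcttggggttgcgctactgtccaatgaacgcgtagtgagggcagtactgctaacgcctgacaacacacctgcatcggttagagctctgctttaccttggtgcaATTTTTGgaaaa
The canonical U1 is shown beside a copy with 97.6% identity to it, which was called in the Ion Proton run while the canonical copy was not. The difference between them was not tested. Capitals mark the letters ACTTACC near the start, which pair with the intron.
Rnu1a1: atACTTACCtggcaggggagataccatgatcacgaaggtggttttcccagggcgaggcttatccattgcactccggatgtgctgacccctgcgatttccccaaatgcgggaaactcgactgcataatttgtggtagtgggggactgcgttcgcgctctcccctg
Gm23238: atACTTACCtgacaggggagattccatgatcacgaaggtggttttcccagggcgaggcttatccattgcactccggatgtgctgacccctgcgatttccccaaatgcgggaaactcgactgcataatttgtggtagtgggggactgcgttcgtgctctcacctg

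On mm10, Rnu12 lies at chr15:83149644-83149794 on the plus strand and Gm24265 at chr5:115489459-115489599 on the plus strand, neither within another annotated gene. Rnu1a1 (chr11:87422867-87423030, plus strand) lies in an intron of Tex14. Gm22710 (chr1:118459141-118459265, minus strand) overlaps an exon of the antisense transcript 2900060B14Rik on the same strand, and Rnu11 (chr4:132270080-132270213, minus strand) an exon of the lincRNA Gm28872 on the opposite strand. Reads of such overlapping genes cannot be told apart where the counting ignored strand, which was not given in the sources used here. In all, 238 of the 559 members overlapped another gene.

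The letters marked in capitals were searched in all members on both strands. The Sm site letters were found on the sense strand of 16 of 17 U2, 3 of 4 U12, 3 of 7 U4 and 1 of 1 U4atac copies, against 0.498% of 1004 other features that were not miRNAs. They were in 0 of 51 U1, 0 of 10 U5, 0 of 5 U11, 0 of 5 U7, 0 of 268 U6 and 0 of 6 U6atac copies, which says only that this spelling was not in them. The U1 letters were found in 35 of 51 U1 copies (68.6%) against 0.398% of those other features. Among unnamed copies the Sm letters were in 4.32%. Since similarity to a reference that holds these letters or lacks them decided the family, these shares are a description.

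The libraries held 6053130 to 7760142 reads on listed features in the Ion Proton run and 4039837 to 12178454 in the SOLiD run. The libraries were first checked for the labelled cell type. The 5 macrophage and myeloid miRNAs summed to 68688 and 74721 CPM (counts per 1000000 reads on listed features) in the Ion Proton controls and to 51611 and 58625 CPM after M-CSF withdrawal. In SOLiD they summed to 384840 RPM (reads per 1000000) in control and 143010 RPM after withdrawal in total RNA, and to 233640 and 95707 RPM in 25 to 40 nt RNA. Lists for 7 other tissues each summed to 23.3 CPM or less in the Ion Proton libraries, with the muscle miRNAs not listed. In the SOLiD libraries, by contrast, the 4 epithelial miRNAs summed to between 6152 and 9355 RPM and the 2 erythroid ones to between 2417 and 4025 RPM, and the part of these marker levels in the results was not tested. RNA integrity numbers were 8.4 to 8.9 for the Ion Proton run, 8.4 (control) and 7.5 (withdrawal) for SOLiD total RNA, and 2.7 and 2.6 for the 25 to 40 nt RNA.

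snRNAs took a small share of all reads, and this share was higher after M-CSF withdrawal. In the Ion Proton run it was 0.216% and 0.182% in the control libraries and 0.286% and 0.276% after withdrawal. The groups did not overlap, although an exact two-sided permutation test of 2 against 2 libraries cannot go below p = 0.333, the value obtained. In SOLiD total RNA the share was 0.748% (95% Wilson interval 0.741 to 0.755) in control and 0.953% (0.947 to 0.958) after withdrawal. In the 25 to 40 nt RNA it was 0.135% (0.132 to 0.137) and 0.465% (0.459 to 0.472). These intervals treat every count as a separate read and cover no spread between libraries, and there were no replicates in the SOLiD run. The 7 copies with the Rnu1a1 sequence had 151 to 156 reads each in the SOLiD total RNA control. Where a read was counted at several copies, the intervals are too narrow, and the shares are of counts. The share of miRNA reads fell at the same time, from 40.4% and 41.6% to 30.0% and 30.3% in the Ion Proton run and from 82.2% to 41.3% in SOLiD total RNA, and its part in the snRNA shares was not tested. Fewer reads of a class and more reads of the others cannot be told apart in shares of a library, nor can fewer cells of a type and less RNA per cell.

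The runs differed in which family led, as the plot of family sums shows. Family sums can count a read at several copies, so they describe reads on copies, not molecules. In the Ion Proton run a read was reported at up to 10 places, fewer than the 51 U1, 17 U2 and 268 U6 copies. The part of this limit in the order of the families was not tested. In the Ion Proton controls U2 and U1 took 38.3% and 36.9% of snRNA reads, and U5 took 13.3%. In the SOLiD control library of total RNA, U5 took 75.5% and U2 took 3.47%. In the 25 to 40 nt control library U1 led with 31.1%. Per 100 nt of length, Gm25099 (U5) had the highest Ion Proton level among the named copies, at a mean of 125 CPM over 4 libraries. The leading U2 copy Gm23472 followed at 56.7, the U4 copy Gm24265 at 34.8, the U1 copy Gm22317 at 29.0, Rnu12 at 13.8, the U4atac copy Gm22710 at 13.3, Rnu7 at 11.6 and Rnu11 at 6.98. The U6 copy Gm22363 was at 0.48 on the same scale. Most of these neighbours in the order were not tested against each other, and the means pool both conditions.

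**Figure D1:**
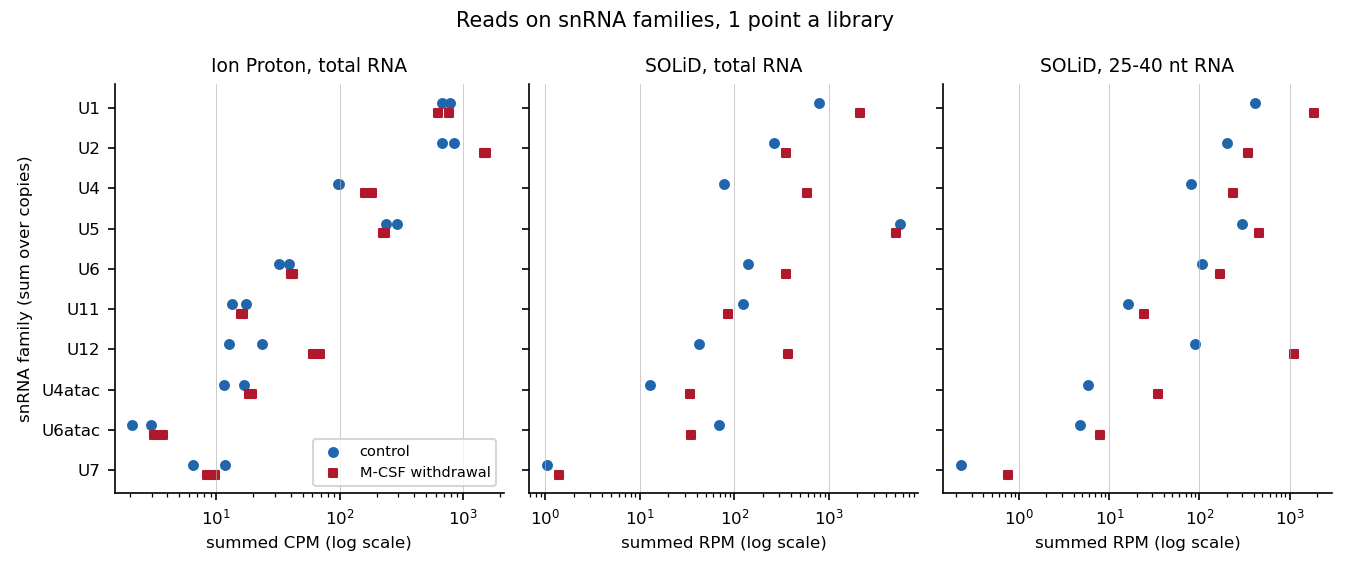
Summed CPM (Ion Proton) or RPM (SOLiD) over the copies of each snRNA family, on log axes, with 1 point for each library, control in blue and M-CSF withdrawal in red. U12 lay higher after withdrawal in every panel (69.9 and 61.0 against 12.8 and 23.4 CPM in the Ion Proton run), while U1 overlapped between groups in the Ion Proton run and was higher after withdrawal in both SOLiD panels.

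Which snRNAs changed in response to M-CSF withdrawal was tested in the Ion Proton run, where 224 of the 559 members had a summed count of at least 5. With p-values of edgeR's quasi-likelihood test adjusted over all 2029 features tested (Benjamini-Hochberg), 25 members were higher after M-CSF withdrawal and 0 were lower at an adjusted p under 0.05. The background was 15.7% of all features higher and 8.97% lower, so that the 11.2% of members called higher was below the share of all features. No member was lower at an unadjusted p under 0.05 either, and DESeq2 and limma-voom also called 0 lower. The median log2 fold change was 0.29 over the members tested and 0.08 over all features. Of the members tested, 85 had both withdrawal libraries above both controls in CPM (37.9%) and 22 had both below (9.82%), against 33.4% and 28% of all features. Most members had few reads, and only 39 reached a mean of 10 CPM over the 4 libraries. This mean includes the withdrawal libraries, through which 2 U12 copies among the 39 reached it. The same filter was put on all features, and the shares at this level are a description. Of these 39, 17 were higher (43.6%) and 0 lower, against 30.4% and 20.1% of all features at that level.

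The calls fell on a few families, which share reads among their copies. They comprised 12 of 17 U2 copies tested, 6 of 42 U1 copies, 3 of 4 U12 copies, 3 of 3 U4 copies and 1 of 31 unnamed copies. No copy of U5, U6, U11, U4atac, U6atac or U7 was called by edgeR or DESeq2, and 0 had an unadjusted p under 0.05 in the edgeR fit. Counted once per sequence, 21 of 155 distinct sequences were called. Copies of identical sequence are no independent evidence: the 7 copies with the sequence of Rnu1a1 had between 389 and 420 reads in the same control library. Without M-CSF withdrawal replicate 1 the calls numbered 15 and without replicate 2 they numbered 16, with 0 U1 copies called by edgeR in either case (2 and 6 at an unadjusted p under 0.05). The shares in these fits were 7.98% and 8.21% of members and 10.4% and 10.3% of all features, so that the calls over all features fell too. Without control replicate 2 there were 21 higher and 1 lower, the U5 copy Rnu5g.

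**Figure D2:**
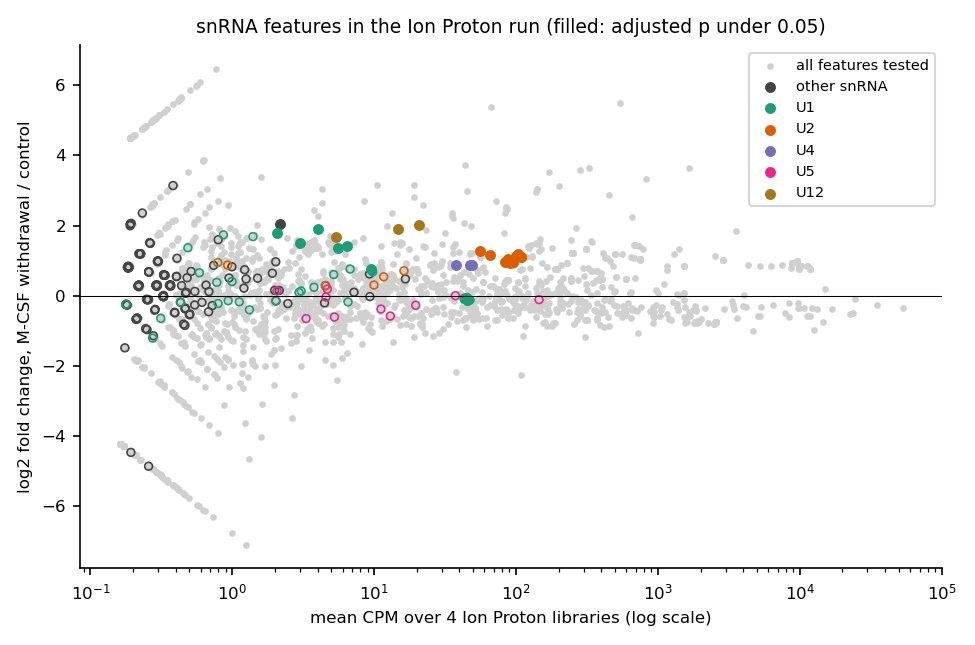
Log2 fold change after M-CSF withdrawal (y axis) against the mean CPM over 4 Ion Proton libraries (x axis, log scale) for all 2029 features in grey and the 224 snRNA features in colour, filled where the adjusted p was under 0.05. All 25 filled points lie above 0, and the U2, U4 and U12 copies lie apart from the U5 copies and the abundant U1 copies near or below 0.

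The 3 total RNA libraries of each condition were also compared in one limma model with run as a term, over 1701 features with reads in both runs. Here 12 of 166 members were higher (7.23%) and 0 lower, against 11.6% and 5.7% of all features. The median log2 fold change was 0.32 over the members and 0.17 over all features. The 12 comprised 5 U1, 3 U2, 2 U12, 1 U4 and 1 unnamed copy. The count was 0 without control replicate 1 or without either M-CSF withdrawal replicate, and 1 without control replicate 2. Over all features the share called higher fell from 11.6% to 4.53%, 0.882%, 0.941% and 1.12% in these 4 fits, in this order. In the 3 fits with 0 calls, limma gave 27, 15 and 21 members higher at an unadjusted p under 0.05, with median log2 fold changes of 0.42, 0.38 and 0.38 over the members.

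U12, which pairs with the branch site of minor introns, had the largest log2 fold changes among called members at a mean of 10 CPM or more. This mean includes the withdrawal libraries. In control replicates 1 and 2 the 2 U12 copies at this level had 4.90 to 5.67 and 7.94 to 11.3 CPM. They reached the level through the withdrawal libraries, so that this order is a description. Rnu12 had 5.67 and 11.3 CPM in the Ion Proton controls and 35.7 and 30.7 CPM after M-CSF withdrawal. It had 36.0 RPM (95% Wilson interval 31.5 to 41.3) in the SOLiD control and 349 RPM (339 to 360) after withdrawal. In the 25 to 40 nt RNA it had 81.1 RPM (75.4 to 87.3) and 1083 RPM (1052 to 1116). Thus every M-CSF withdrawal library lay above its controls. The log2 fold change was 2.03 ± 0.34 (SE, adjusted p = 0.0166, edgeR) in the Ion Proton run and 2.36 ± 0.39 (adjusted p = 0.0146, limma) over both runs. The call over both runs was lost without control replicate 1 (adjusted p = 0.0714, limma) and without M-CSF withdrawal replicate 1 or 2 (0.0823 and 0.0626), while in the Ion Proton run it held without each library in turn. The SOLiD log2 ratios of RPM plus 1 were 3.24 in total RNA and 3.72 in 25 to 40 nt RNA.

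The diverged U12 copy Gm24525, in an intron of Zfp804b, rose from 4.90 and 7.94 CPM to 24.2 and 21.8 CPM (log2 fold change 1.90 ± 0.26, adjusted p = 0.0121, edgeR). It differs from Rnu12 by C11A, G16A, C31T, G113A, G137A and C150A, with the Rnu12 base first and positions counted from 1 at the 5′ end. In SOLiD total RNA it had only 3.29 and 15.1 RPM, so that Rnu12 alone took 86.0% and 95.1% of the U12 reads there, against 44.4% to 51.1% in the Ion Proton libraries. Another copy, Gm23502, was also called, with a log2 fold change of 1.68. The U12 family sum was 3.62 times the control mean in the Ion Proton run, 8.75 times in SOLiD total RNA and 12.5 times in 25 to 40 nt RNA. The direction held with the libraries scaled to miRNA reads or centred on the median feature.

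U12 also had the highest level in 25 to 40 nt RNA relative to total RNA among the families. The ratio of the family sums between these libraries was 2.13 in control cells and 3.04 after withdrawal, while for all snRNAs together it was 0.18 and 0.49. At 10 RPM or more in either library, 3 of 63 members were higher in the 25 to 40 nt control library than in total RNA, against 41.2% of all 1103 features. After withdrawal it was 32 of 92 members, against 53.4% of 1154 features.

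No other RNA particular to the minor spliceosome passed the threshold with all libraries included. Rnu11, which recognises the start of minor introns, had 10.6 and 8.63 CPM in the Ion Proton controls and 8.28 and 9.91 CPM after withdrawal, and the groups overlapped. Its log2 fold change was -0.03 ± 0.21 (adjusted p = 0.942, edgeR). In SOLiD it had 123 RPM (114 to 132) in control and 85.6 RPM (80.6 to 91.0) after withdrawal in total RNA, but 14.9 RPM (12.6 to 17.7) and 23.0 RPM (18.8 to 28.2) in 25 to 40 nt RNA. The U4atac copy Gm22710 had 11.6 and 16.9 CPM in controls and 19.6 and 18.5 CPM after withdrawal. Its adjusted p was 0.224 in the edgeR fit, although the groups did not overlap. Of all features tested, 33.4% had both withdrawal libraries above both controls. Gm22710 was also higher after withdrawal in SOLiD, with 12.99 and 33.9 RPM in total RNA and 5.72 and 34.7 RPM in 25 to 40 nt RNA. Without Ion Proton control replicate 2, Gm22710 was called higher (log2 fold change 0.78, adjusted p = 0.0486, edgeR). The U6atac copy Gm25541 had 9 to 12 reads in each Ion Proton library, and in SOLiD total RNA it had 62.4 RPM (56.2 to 69.1) in control and 31.0 RPM (28.0 to 34.2) after withdrawal. Whether U12 differed from these RNAs was not tested.

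U4, the partner of U6 in the major spliceosome, had higher levels after M-CSF withdrawal in every pair of libraries. Gm24265 had 34.4 and 36.1 CPM in the Ion Proton controls and 67.6 and 58.3 CPM after withdrawal. It had 34.8 RPM (30.3 to 39.98) and 281 RPM (272 to 291) in SOLiD total RNA, and 37.7 RPM (33.9 to 42.0) and 112 RPM (102 to 123) in 25 to 40 nt RNA. The groups did not overlap in the Ion Proton run. The log2 fold change was 0.89 ± 0.12 there (adjusted p = 0.00987, edgeR) and 1.54 ± 0.46 over both runs (adjusted p = 0.0693, limma). Over both runs it passed the threshold with each library centred on its median (adjusted p = 0.0475, limma), with TMM factors (0.0445), with scaling to miRNA reads (0.0489) and without the SOLiD libraries (0.00856). The copies Gm24407 and Gm25899 had log2 fold changes of 0.87 and 0.87 in the Ion Proton run. Over both runs Gm25899 was called, at 1.13 ± 0.29 (adjusted p = 0.0464, limma), and Gm24407, at 1.52 ± 0.46, was not (adjusted p = 0.0734, limma). Gm24407 differs from Gm24265 by G88A and C99A.

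U2, which pairs with the branch site, rose in 12 of 17 copies in the Ion Proton run. Gm23472 had 79.0 and 61.8 CPM in the Ion Proton controls and 143.4 and 149 CPM after withdrawal. In SOLiD total RNA it had 20.6 RPM (17.2 to 24.7) and 33.8 RPM (30.7 to 37.3), and in 25 to 40 nt RNA 16.9 RPM (14.4 to 19.9) and 32.2 RPM (27.1 to 38.2). Its log2 fold change was 1.11 ± 0.14 (adjusted p = 0.00987, edgeR) in the Ion Proton run and 0.93 ± 0.21 (adjusted p = 0.0365, limma) over both runs. The call over both runs was lost with each library centred on its median (adjusted p = 0.112, limma), with TMM factors (0.164), in an edgeR fit (0.18) and without any 1 of the Ion Proton libraries (0.109 to 0.162), and 0 U2 copies were called in these fits. Rnu2-10, from which it differs by G109C, had 73.8 and 58.8 CPM against 120 and 128 CPM, with a log2 fold change of 0.95 (adjusted p = 0.0143, edgeR). The 12 copies called had log2 fold changes between 0.93 and 1.27. Among them, Gm25360 and Gm25202 rose by 1.27 and 1.17 on the log2 scale in the Ion Proton run but had SOLiD total RNA levels of 16.1 and 15.3 RPM and of 17.2 and 14.5 RPM, with overlapping intervals. The 12 U2 copies at 10 RPM or more in SOLiD total RNA had a median log2 ratio of 0.41, beside 0.43 over all 978 features.

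U1 did not behave alike in the runs. The 14 U1 copies with a mean of at least 10 CPM had log2 fold changes between -0.16 and -0.06 in the Ion Proton run, with no adjusted p below 0.524. The same 14 copies had SOLiD total RNA log2 ratios between 1.21 and 1.43. Rnu1a1, for example, had 51.2 and 42.6 CPM in the Ion Proton controls and 48.0 and 39.0 CPM after withdrawal, with overlapping groups. In SOLiD total RNA it had 26.2 RPM (22.3 to 30.7) and 71.0 RPM (66.4 to 75.9), and in 25 to 40 nt RNA 13.6 RPM (11.4 to 16.2) and 69.1 RPM (61.4 to 77.7). With TMM factors over miRNA features only, the log2 fold change of Rnu1a1 in the Ion Proton run was 0.27 (adjusted p = 0.41, edgeR). The difference between the runs was not tested, since SOLiD had 1 library a group.

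The 6 U1 copies called in the Ion Proton run were less abundant ones, Gm26244, Gm23238, Gm25189, Gm26110, Gm25581 and Gm22739, named here after their values were seen. They had between 0.84 and 7.47 CPM in the controls and between 3.14 and 12.9 CPM after withdrawal. Gm23238 had 3.99 and 3.20 CPM against 10.1 and 8.59 CPM (log2 fold change 1.42 ± 0.23, adjusted p = 0.0151, edgeR). It differs from Rnu1a1 by G12A, A23T, C153T and C160A. In SOLiD total RNA it had 18.7 and 66.4 RPM, close to the levels of Rnu1a1, while in the Ion Proton controls it was far below that copy. Gm23238 has 97.6% identity to Rnu1a1. Copies under 97% identity to their reference, a class that leaves out Gm23238, held 4 of the 6 called copies. They took 4.24% and 4.27% of U1 reads in the Ion Proton controls and 6.89% and 7.31% after withdrawal. In SOLiD total RNA they took 33.1% and 31.6%. DESeq2 called 0 of the 42 U1 copies, with 2 higher at an unadjusted p under 0.05, and limma-voom called 5.

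**Figure D3:**
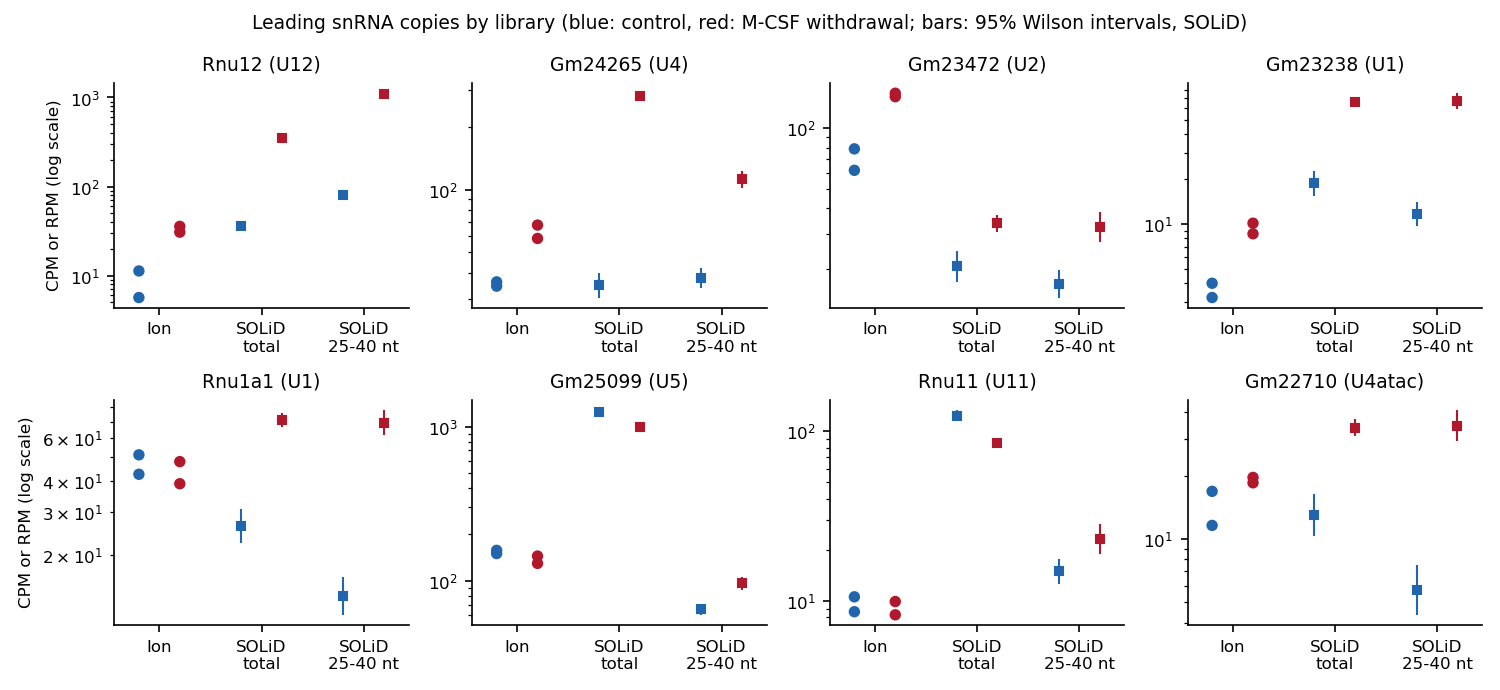
CPM (Ion Proton, circles) or RPM (SOLiD, squares with 95% Wilson intervals) of 8 snRNA copies in all libraries on log axes, control in blue and M-CSF withdrawal in red. Rnu12, Gm24265, Gm23472, Gm23238 and Gm22710 were higher after withdrawal in every pair of groups, and Rnu1a1 was higher in the SOLiD libraries only.

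U5, which holds the exons during splicing, was the family with the most reads in SOLiD total RNA and had no call with all libraries included. Gm25099 had 158 and 150 CPM in the Ion Proton controls and 130 and 145 CPM after withdrawal. It had 1243 RPM (1215 to 1272) and 988 RPM (970 to 1006) in SOLiD total RNA, and 65.3 RPM (60.2 to 70.8) and 96.3 RPM (87.2 to 106) in 25 to 40 nt RNA. Both M-CSF withdrawal libraries lay below the controls in the Ion Proton run, but the difference did not pass the test (log2 fold change -0.11 ± 0.10, adjusted p = 0.507, edgeR). Of all 2029 features, 28% had both withdrawal libraries below both controls. Rnu5g had 19.7 and 11.98 CPM against 11.2 and 9.25 CPM, and 650 and 664 RPM in SOLiD total RNA. Its log2 fold change was -0.58 in the Ion Proton run (adjusted p = 0.259, edgeR), and without control replicate 2 it was called lower (-0.88, adjusted p = 0.0443). The 10 U5 copies had Ion Proton log2 fold changes between -0.65 and 0.19 and SOLiD total RNA log2 ratios between -0.33 and 0.08. Their share of snRNA reads was 75.5% and 53.6% in SOLiD total RNA and 13.3% and 8.16% in the Ion Proton groups. With TMM factors over miRNA features only, the median U5 log2 fold change was 0.13 in the Ion Proton run. This was opposite in sign to the value of -0.19 given by the TMM factors over all features used here.

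U6 was the largest family by copies and had few reads on each. In the Ion Proton run a read was reported at up to 10 places, so a read shared by more copies was missed at some. The part of this limit in the U6 levels was not tested. None of its 104 tested copies exceeded 0.77 CPM in any Ion Proton library, and 0 were called by edgeR, with 0 at an unadjusted p under 0.05. Rnu6 had 3 and 1 reads in the controls and 2 and 2 after withdrawal. Summed over copies, U6 had 38.7 and 32.3 CPM in controls and 40.3 and 42.1 CPM after withdrawal, and 140 and 351 RPM in SOLiD total RNA. The U6 copy with the most SOLiD reads, Gm25628, had 4.33 and 21.9 RPM and was not listed for the Ion Proton run. Rnu7 had 4.77 and 9.47 CPM in the controls and 7.05 and 7.60 CPM after withdrawal, with an adjusted p of 0.886 in the edgeR fit.

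Among unnamed copies 1 of 31 tested was called. Gm22126, named after its values were seen, lies in an intron of Cdyl on the same strand and had 1.03 and 0.70 CPM in controls and 3.53 and 3.47 CPM after withdrawal (log2 fold change 2.04, adjusted p = 0.0284, edgeR). Gm25259, in an intron of Lrfn3, had the highest Ion Proton level of the unnamed copies, at 9.92 and 5.01 CPM against 9.35 and 12.9 CPM. Gm23102 had the highest mean over both SOLiD libraries of total RNA among the unnamed copies, with 77.1 and 77.3 RPM. Gm26020, named after its values were seen, was higher in the control library alone, with 90.6 and 40.3 RPM.

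In SOLiD total RNA, 34 of 62 members at 10 RPM or more in both libraries were at least 2-fold higher after withdrawal and 1 was at least 2-fold lower, against 41.2% and 11.6% of all 978 features. Of the 34, 30 were U1 copies, out of 31 U1 copies at this level, and copies of this family share reads. The rest were 2 U4 copies, 1 U12 copy and 1 U4atac copy, with 0 of 12 U2 and 0 of 10 U5 copies. The median log2 ratio was 1.23 over the members and 0.43 over all features. It was 1.40 over the U1 copies, 0.41 over the U2 copies and -0.06 over the U5 copies. In 25 to 40 nt RNA, 23 of 43 members were at least 2-fold higher and 0 lower, against 47.7% and 11.2% of 903 features. The medians were 1.11 over the members and 0.90 over all features. Here 19 of the 23 were U1 copies, and all 19 U1 copies at this level were among them. Across the 36 members at 10 or more in both runs, 15 were higher in the Ion Proton run and in SOLiD total RNA, 4 were lower in both and 17 had opposite signs, of which 14 were U1 copies. These 14 held 6 distinct sequences and share reads. Signs were taken about 0, while the median of all features was 0.08 in the Ion Proton run and 0.43 in SOLiD total RNA. The share of all features with opposite signs was not counted.

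**Figure D4:**
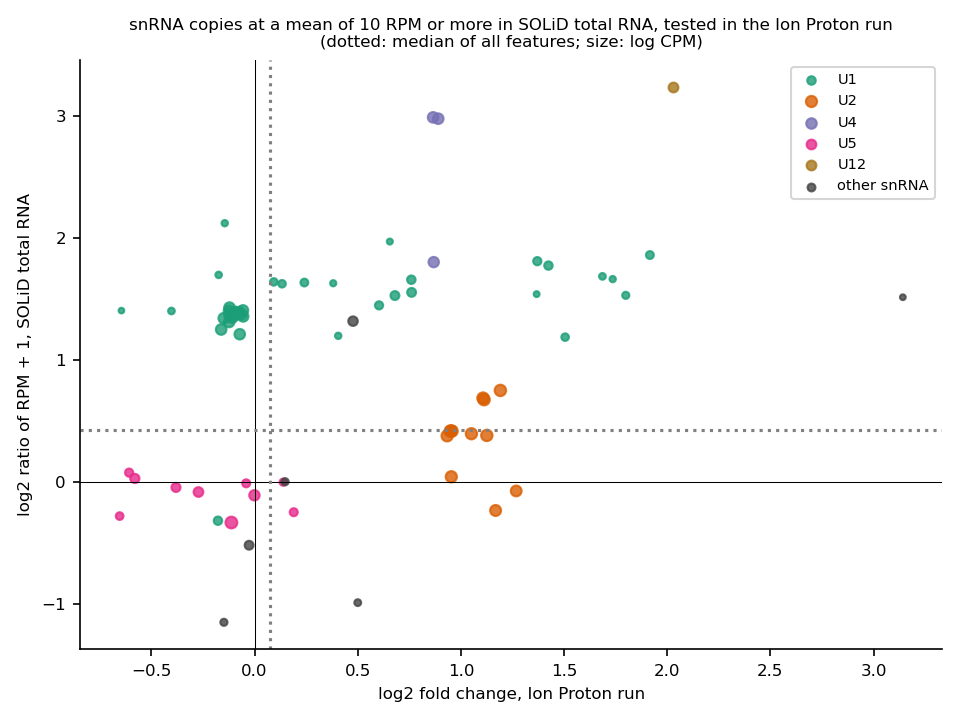
SOLiD total RNA log2 ratio (y axis) against the Ion Proton log2 fold change (x axis) for 69 snRNA copies with a mean of 10 RPM or more, coloured by family, with dotted lines at the medians of all features (0.43 and 0.08). Rnu12 and the U4 copies lie high on both axes, the abundant U1 copies lie high on the y axis and near 0 on the x axis, and the U2 copies lie right of the dotted line at SOLiD ratios near the median.

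Guide RNAs for snRNAs and other structured RNAs were read from the same fits. Of all features, 15.7% were called higher and 8.97% lower in the Ion Proton run, and 11.6% and 5.7% over both runs. Of 9 scaRNAs, the class that guides modification of snRNAs, 0 passed the threshold by edgeR and 0 by limma, with 1 and 0 at an unadjusted p under 0.05. Of 4 U3, U8 and U13 features, which serve ribosomal RNA processing, 0 were called by either, with 2 and 1 at an unadjusted p under 0.05. Of 9 other structured RNAs tested in the Ion Proton run, 3 were higher and 1 lower. Among all features with a mean of 10 CPM or more, 30.4% were higher and 20.1% lower. The former were Rny1 and Rny3, which bind the Ro protein, and Vaultrc5, a component of vault particles, with log2 fold changes of 1.78, 1.10 and 1.35, and these were also the 3 called higher over both runs. The latter was the telomerase RNA Terc, at -1.64, with 7.09 and 12.5 CPM in the controls and 2.91 and 3.14 CPM after withdrawal. Its mean was below 10 CPM, so that the 20.1% does not cover it. Rn7sk, a regulator of transcription elongation, had a log2 fold change of -0.14 (adjusted p = 0.524, edgeR).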

How the data were processed

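Counts per feature were deposited by the authors for the Ion Proton run without normalization, made with cutadapt 1.2.1 (reads under 15 bases discarded) and Bowtie2 2.2.4 on mm10 with up to 10 places reported per read. Reads of near-identical copies could therefore be counted at several copies. For SOLiD, the authors mapped with LifeScope, and RPM values (reads per 1000000 on listed features) were deposited by the authors. All values were whole multiples of 1 read within 0.01, and reads were recovered from them.

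Symbols and positions came from GENCODE M21 (556 of 559 matched). Families were assigned with blastn 2.17.0 (85% identity over 80% of the feature). The Ion Proton table was analysed with edgeR 4.0.16 under R 4.3.3 (TMM factors, minimum summed count 5), and both runs with limma 3.58.1 on log2 of CPM or RPM plus 1, with treatment and run. Python 3.11.15, scipy 1.17.1 and matplotlib 3.10.9 served for intervals and figures.

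Named copies were the most read of each family in each run, those with an Rnu symbol or alone in their family, and up to 5 with the largest rise and fall at 10 CPM or more. Of the Snord symbols listed for U3, only those of U3 itself were taken, which left out other snoRNAs whose symbols start alike. Members and lists were chosen with earlier results of these data known. On simulated data with 200 features changed 3-fold, edgeR recovered 100% and limma 98%, and unchanged features made up 0.498% and 2.97% of the calls. The changed features were drawn from those with more reads, and the change was the same in both runs. Counts were drawn independently with a fixed spread. These figures therefore do not cover copies with few reads, copies that share reads, or smaller changes. Alternatives in normalization, filter, pseudocount, test, replicate block and left-out libraries were run. Some sequences are not reported here.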

Additional observations from a re-analysis of the deposited data

Results flagged for a closer look

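In 4 of the named snRNAs the direction after M-CSF withdrawal was opposite between kinds of library, counting SOLiD values with intervals that did not overlap and Ion Proton groups that did not overlap, and these differences were not tested. Gm25099 (U5) had a log2 ratio of -0.331 in SOLiD total RNA and 0.553 in SOLiD 25 to 40 nt RNA. Rnu11 had -0.517 in total RNA and 0.593 in 25 to 40 nt RNA. For both, the 95% Wilson intervals of control and withdrawal did not overlap in either kind of library. The median log2 ratio of all features was 0.43 in total RNA and 0.90 in 25 to 40 nt RNA, and both copies lay below it in each. Relative to that median the U5 sum was 0.67 and 0.82 times control in total and 25 to 40 nt RNA, and the U11 sum 0.52 and 0.81 times. The opposite directions are thus those of RPM, and the share of all features with such directions was not counted. Gm25541 (U6atac) was lower in SOLiD total RNA, and both M-CSF withdrawal libraries of the Ion Proton run lay above the controls (log2 fold change 0.50, adjusted p = 0.513, edgeR). Both M-CSF withdrawal libraries of the Ion Proton run lay below the controls for Gm25099 (log2 fold change -0.113) and Rnu5g (-0.581), and both copies were higher in SOLiD 25 to 40 nt RNA. All 25 to 40 nt and total RNA values rest on 1 library a group.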

How the results depend on the processing

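The count of 25 snRNAs in the Ion Proton run moved between 15 and 23 when a replicate was left out, and between 17 and 28 under the other alternatives, with 0 lower except 1 without control replicate 2. The deviations of replicate 1 in control and in withdrawal had a correlation of -0.0309 across 2029 features. With 2 libraries a group this cannot settle whether the replicate numbers pair the libraries, and the main fits used no block. With a replicate block the Ion Proton count was 18, which left 1 U12 and 2 U1 copies (Rnu12 at an adjusted p of 0.0516), and the count over both runs was 0 (Rnu12 at 0.0622, Gm23472 at 0.111), with 26 higher at an unadjusted p under 0.05 by limma. The count of 12 over both runs was 7 with each library centred on its median, 7 with TMM factors, 6 by edgeR, 24 by voom, 29 with scaling to miRNA reads, 24 without the SOLiD libraries, and between 0 and 1 when an Ion Proton replicate was left out. The cause was not tested.

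Scaling moved all features together: the median log2 fold change of all features was 0.08 in the Ion Proton run as reported and 0.40 with TMM factors over miRNAs, and over both runs it was 0.17 as reported, 0.69 with scaling to miRNA reads and -0.14 with centring. The SOLiD median log2 ratio of 1.23 in total RNA became 0.80 relative to the median of all features, 2.22 with scaling to miRNA reads and 1.02 at 1 RPM or more. In 25 to 40 nt RNA 1.11 became 0.21, 2.05 and 0.82.

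Alternatives were run copy by copy for the named copies only, and among these the reversals were in copies without a call. In the Ion Proton run, TMM factors over miRNAs gave log2 fold changes of 0.20 for Gm22317, 0.16 for Rnu1b1, 0.27 for Rnu1a1, 0.27 for Gm22513, 0.25 for Rnu1b2, 0.21 for Gm25099 and 0.30 for Rnu11. DESeq2 size factors and DESeq2 gave -0.032 and -0.038 for Rnu7. Leaving out a replicate in turn gave ranges of -0.26 to 0.0091 for Gm22317, -0.19 to 0.072 for Rnu1a1, -0.20 to 0.078 for Gm22513, -0.21 to 0.058 for Rnu1b2, -0.092 to 0.51 for Rnu1b6, -0.21 to 1.04 for Rnu6, -0.18 to 0.12 for Rnu11 and -0.43 to 0.68 for Rnu7. Over both runs, dropping the SOLiD libraries gave -0.18 for Gm22317, -0.21 for Rnu1b1, -0.11 for Rnu1a1, -0.11 for Gm22513, -0.13 for Rnu1b2 and 0.27 for Gm25541. Scaling to miRNA reads gave 0.40 for Gm25099, 0.24 for Rnu5g, 0.39 for Rnu11 and 0.48 for Gm25541. Centring gave -0.033 for Rnu1b1, -0.071 for Rnu6, -0.16 for Rnu7 and -0.26 for Gm23102. TMM factors gave -0.018 for Rnu1b1, -0.016 for Rnu7 and -0.25 for Gm23102, and edgeR gave -0.014, -0.11 and -0.33. Leaving out a replicate gave -0.090 to 0.40 for Rnu7 and -0.024 to 0.097 for Gm23102.

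Copies under a few reads could not be resolved, and SOLiD values had no replicates.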
